A study of Homo sapiens with 20 samples.

Results

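The NR4A family comprises 3 orphan nuclear receptors, NR4A1 (Nur77), NR4A2 (Nurr1) and NR4A3 (NOR1). They were examined here in WT Jurkat T lymphoblasts and in the CD47-deficient Jurkat line JinB8. All 3 genes were found by symbol among the 60719 genes of the expected-count table, and 37 of the 232184 isoforms carried these symbols. NR4A receptors act as transcription factors whose activity is set largely by how much of the protein is made. NR4A1 and NR4A3 are immediate-early genes that T cells transcribe within the first hours of T cell receptor signaling, downstream of calcium, calcineurin and MEF2, and their products bind the NBRE site as monomers. In T cells NR4A1 is widely used as a reporter of antigen receptor signal strength, and the family is known for roles in negative selection, regulatory T cells and T cell exhaustion.

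RNA was sequenced from 20 libraries, 10 per line. Jurkat (genotype WT) is a human T cell leukemia line, and JinB8 is a single somatic mutant derived from it that lacks surface CD47, the receptor of thrombospondin-1 (TSP1). In each line, untreated cells (UT) were collected at 1 h only, and cells exposed to TSP1 at 1 μg/mL, plated on anti-CD3 and anti-CD28 (CD3_CD28, with anti-CD28 coated at 4 μg/mL), or given both (CD3_CD28_TSP1), were collected at 1, 3 and 6 h. All cells were held in serum-free medium. Each condition was sequenced once, so p-values rest on the spread between libraries of different conditions, which may be technical, and nothing in the labels says that the libraries came from separate cultures. In bulk RNA, fewer expressing cells and less RNA per cell cannot be told apart.

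Library depth ranged from 16107921 to 31737616 expected counts. CD47 itself checked the line labels, with 253 to 372 CPM (counts relative to TMM-scaled library size) in WT and 124 to 165 CPM in JinB8 libraries (log2 fold change -1.10, SE 0.08, edgeR adjusted p = 1.05e-10). The summed level of 11 T cell markers was 1551 to 2136 CPM in WT and 1650 to 2344 CPM in JinB8. Within that list, TRAC, the constant chain of the T cell receptor alpha subunit, was 185 ± 62.7 CPM (SD, n = 10) in WT and 21.8 ± 5.12 CPM in JinB8, and CD28, the costimulatory receptor engaged by the plated antibody, was 45.1 ± 17.0 and 230.0 ± 17.4 CPM. The part of TRAC and CD28 in the differences below was not tested. Among markers of other cells, the B cell list was 34.1 to 54.1 CPM in WT and 4.20 to 10.3 CPM in JinB8, nearly all of it CD79A, while MS4A1 stayed at or below 0.163 CPM. The summed myeloid, fibroblast and epithelial lists did not exceed 7.94 CPM in any library. The JinB8 library given CD3_CD28_TSP1 at 3 h stood apart, with the lowest depth, the highest TMM factor (1.20) and the lowest mean correlation with other libraries of its line (0.97, against 0.976 to 0.984 elsewhere), and the results at 3 h that it moved most are also given without it.

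NR4A1 was the predominant family member. Scaled to transcript length, its level was 59.7 ± 53.0 TPM (SD, n = 10) in WT and 16.1 ± 9.84 TPM in JinB8. NR4A3 followed with 2.49 ± 1.94 and 0.846 ± 0.660 TPM, and NR4A2 with 0.173 ± 0.112 and 0.118 ± 0.0721 TPM. The order NR4A1, NR4A3, NR4A2 held within each of the 20 libraries. The TPM ratio of NR4A1 to NR4A3 had a median of 21.1 in WT (11.2 to 31.4) and 18.8 in JinB8 (8.65 to 31.7), and the ranges of the lines overlapped. Against NR4A2 the median ratio was 239.7 in WT and 137 in JinB8.

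NR4A1 (ENSG00000123358, chr12:52022832-52059507, plus strand, GRCh38) was measured as follows in WT cells. At 1 h, its level was 178 CPM in UT, 205 CPM with TSP1, 383 CPM with CD3_CD28 and 485 CPM with CD3_CD28_TSP1. At 3 h, the CD3_CD28 library had 210.4 CPM, the CD3_CD28_TSP1 library 208 CPM and the TSP1 library 27.3 CPM. By 6 h these fell to 9.84, 17.3 and 6.35 CPM in the same order. The 1 h libraries were thus high even without antibody, and all 3 of the 6 h libraries lay below every earlier one.

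The same gene covered a narrower range in JinB8. At 1 h its level was 62.5 CPM in UT, 44.3 CPM with TSP1, 65.6 CPM with CD3_CD28 and 74.6 CPM with CD3_CD28_TSP1. The 3 h values were 36.05 CPM with CD3_CD28, 36.8 CPM with CD3_CD28_TSP1 and 23.8 CPM with TSP1. At 6 h they were 12.8, 11.5 and 11.4 CPM. The lines did not overlap at 1 h, whereas at 3 h the WT library given TSP1 alone fell among the JinB8 libraries, and at 6 h the ranges overlapped. Counting error was small beside these gaps: the exact 95% Poisson interval of the lowest library, WT with TSP1 at 6 h, ran from 5.40 to 7.42 CPM on 159 counts, and covers counting error only.

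NR4A3 (ENSG00000119508, chr9:99821855-99866891, plus strand, GRCh38) was less abundant and ran in parallel. In WT cells at 1 h its level was 24.4 CPM in UT, 17.4 CPM with TSP1, 28.0 CPM with CD3_CD28 and 30.7 CPM with CD3_CD28_TSP1. At 3 h it was 17.8 CPM with CD3_CD28, 14.3 CPM with CD3_CD28_TSP1 and 4.02 CPM with TSP1. At 6 h the values were 1.19, 1.89 and 1.12 CPM. As for NR4A1, the TSP1 library was the low one at 3 h, and little transcript remained at 6 h.

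JinB8 cells carried less NR4A3 from the start. The 1 h libraries had 3.67 CPM in UT, 3.83 CPM with TSP1, 5.05 CPM with CD3_CD28 and 4.57 CPM with CD3_CD28_TSP1. At 3 h the level was 3.15 CPM with CD3_CD28, 2.74 CPM with TSP1 and 8.51 CPM with CD3_CD28_TSP1, the last being the library that stood apart. The 6 h values were 1.19, 1.06 and 1.67 CPM. The lines were separate at 1 h, where the lowest WT library exceeded the highest JinB8 library more than 3-fold, and overlapped at 6 h. At 3 h the overlap came from the library that stood apart alone, since the other JinB8 libraries lay below the lowest WT library.

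**Figure D1:**
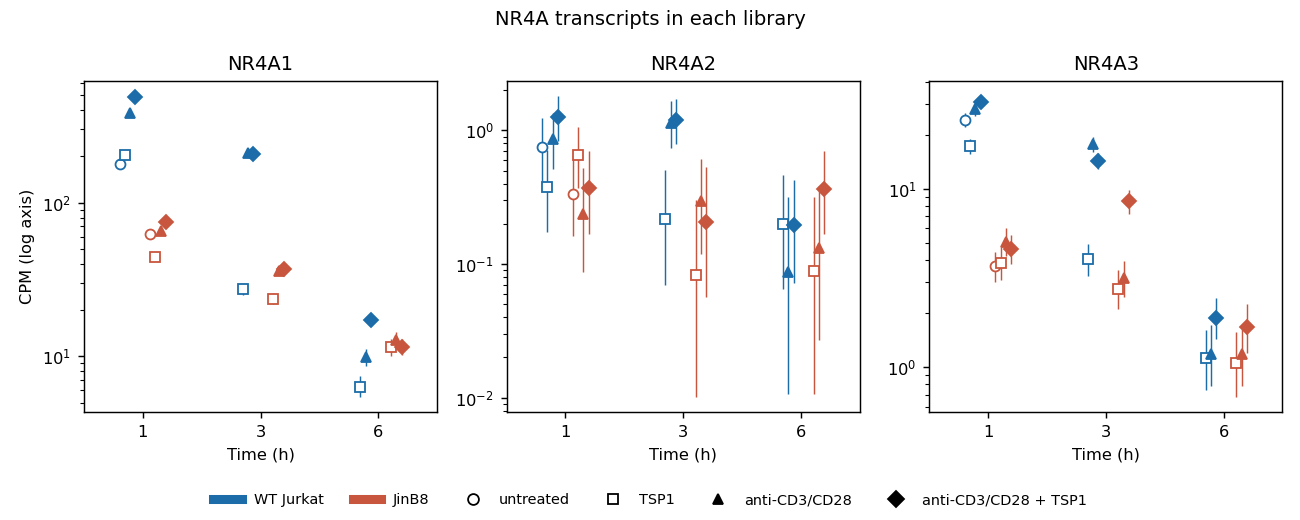
Levels of NR4A1, NR4A2 and NR4A3 (CPM, log axis) at 1, 3 and 6 h in WT Jurkat (blue) and JinB8 (red); each symbol is 1 library, its shape and fill give the treatment, and bars are exact 95% Poisson intervals. NR4A1 and NR4A3 were higher in every WT library than in any JinB8 library at 1 h, and the lines met at 6 h.

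NR4A2 (ENSG00000153234, chr2:156324437-156342348, minus strand, GRCh38) was near the limit of detection, taken as 3 counts or 0.0979 to 0.156 CPM depending on the library. It received 141 counts over the 10 WT libraries and 68 over the 10 JinB8 libraries, and did not pass the low-count filter. Its highest WT values were 28 counts (1.25 CPM) with CD3_CD28_TSP1 at 1 h, and 28 counts (1.19 CPM) with CD3_CD28_TSP1 and 25 counts (1.13 CPM) with CD3_CD28 at 3 h. The WT library given TSP1 at 3 h had 5 counts (0.216 CPM, exact 95% interval 0.0702 to 0.505), below the intervals of both activated libraries at that time. JinB8 libraries had 2 to 16 counts and the highest was TSP1 at 1 h. A fit without the low-count filter, in which 18.8% of 41107 genes were called between the lines, gave a log2 difference of -1.13 (SE 0.44, edgeR adjusted p = 0.0742) for JinB8 against WT. By time it was called lower in JinB8 at 3 h (-1.87, SE 0.56, adjusted p = 0.00600; 19.2% of genes called) and not at 1 h (-0.90, adjusted p = 0.149) or 6 h (0.28, adjusted p = 1.00). Fits by time without the filter had narrower errors (for the NR4A1 line by time difference at 3 h, SE 0.13 against 0.41). Their p-values for NR4A2 were those of a normal distribution at the value divided by its SE, which allows for no error in the estimated spread. Calls by time without the filter are therefore lenient, and the cause was not tested.

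JinB8 was compared with WT over all treatments and times. As JinB8 is a single mutant line, loss of CD47 cannot be told apart from any other difference between the lines. NR4A1 averaged 173 ± 165 CPM (SD, n = 10) in WT and 37.9 ± 23.5 CPM in JinB8, so that JinB8 was lower by 4.56-fold (log2 -2.19 ± 0.64 SE, edgeR adjusted p = 0.00875). NR4A3 averaged 14.1 ± 11.5 and 3.54 ± 2.21 CPM, lower by 3.97-fold (log2 -1.99 ± 0.55 SE, edgeR adjusted p = 0.00573). Both genes tested were called, where 40.4% of 16327 genes were. With a block for the 10 pairs formed of same-treatment, same-time libraries, the differences were -1.47 (adjusted p = 0.00289) and -1.62 (adjusted p = 0.000425), so the NR4A1 value moved towards 0. The 4 pairs without activation alone did not reach the threshold for either gene, and limma voom with quantile normalization gave adjusted p = 0.176 for NR4A1 and 0.0803 for NR4A3.

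Pair by pair, JinB8 was lower in 8 of 10 pairs for NR4A1, 9 of 10 for NR4A3 and 7 of 10 for NR4A2. On the log2(CPM + 0.5) scale the NR4A1 difference ranged from -2.69 with CD3_CD28_TSP1 at 1 h to 0.80 with TSP1 at 6 h. NR4A3 ranged from -2.62 with CD3_CD28_TSP1 at 1 h to 0.0011 with CD3_CD28 at 6 h. Untreated cells at 1 h already differed, by -1.505 for NR4A1 and -2.58 for NR4A3. The pairs above 0 were all from 6 h for NR4A1 and NR4A3, and the TSP1 pair at 3 h was also small, at -0.19 for NR4A1 and -0.48 for NR4A3.

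**Figure D2:**
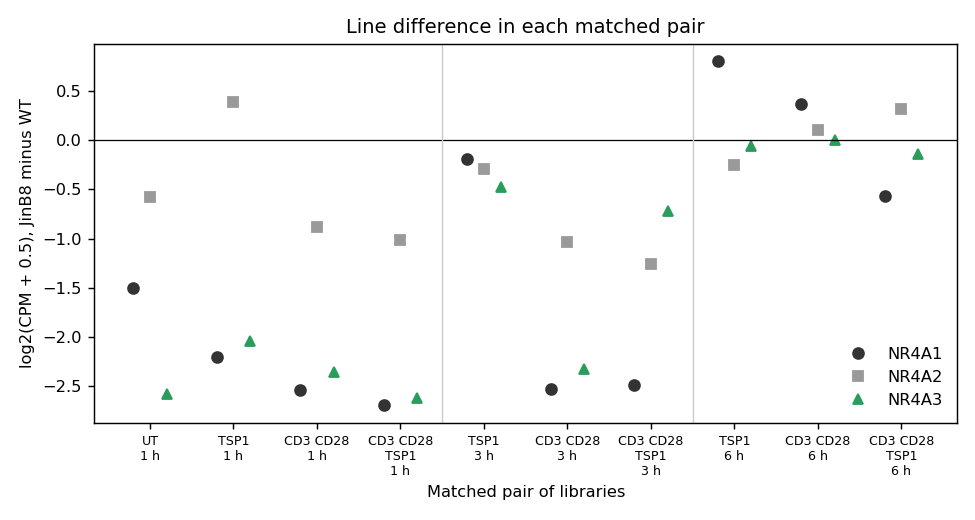
Difference between JinB8 and WT (log2(CPM + 0.5), JinB8 minus WT) in each of the 10 matched pairs, formed by treatment and time; each symbol is 1 pair for NR4A1 (circles), NR4A2 (squares) or NR4A3 (triangles). At 1 h NR4A1 and NR4A3 lie between -1.505 and -2.69, and at 6 h the points lie around 0.

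The line difference was then taken at each time, averaged over the treatments present. At 1 h NR4A1 was 4.78-fold lower in JinB8 (log2 -2.26 ± 0.26 SE, edgeR adjusted p = 5.98e-06) and NR4A3 5.76-fold lower (log2 -2.52 ± 0.26 SE, adjusted p = 2.03e-06), with 49.1% of genes called. At 3 h the changes were -1.88 (SE 0.30, adjusted p = 0.00018) and -1.29 (SE 0.30, adjusted p = 0.00317), with 46.5% of genes called. Without the library that stood apart, the 3 h values were -1.88 (adjusted p = 0.000628) and -1.77 (adjusted p = 0.000269), and over all libraries left out in turn the NR4A3 value ranged from -1.77 to -0.90, the latter without the WT CD3_CD28 library at 3 h (adjusted p = 0.0358). At 6 h the values were 0.22 (interval of 2 SE, -0.46 to 0.91) and -0.10 (-0.94 to 0.74), and neither gene was called, where 47.2% of genes were.

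Both genes fell with time in both lines. In WT cells NR4A1 decreased 2.95-fold from 1 to 3 h (log2 fold change -1.56, SE 0.29, edgeR adjusted p = 0.00102; 34.3% of genes called) and 33.5-fold from 1 to 6 h (-5.07, SE 0.35, adjusted p = 5.99e-08; 50.5% of genes called). NR4A3 decreased 2.31-fold (-1.21, SE 0.28, adjusted p = 0.00402) and 18.1-fold (-4.18, SE 0.34, adjusted p = 2.79e-07). The NR4A1 value from 1 to 3 h was -1.03 without the WT TSP1 library at 3 h and -2.03 without that of CD3_CD28. The fall was present without antibody, since WT cells given TSP1 alone went from 205 to 27.3 to 6.35 CPM for NR4A1 and from 17.4 to 4.02 to 1.12 CPM for NR4A3. No untreated library was collected after 1 h, so time in culture without any addition was not measured here.

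In JinB8 cells NR4A1 decreased 1.90-fold from 1 to 3 h (log2 fold change -0.93, SE 0.30, edgeR adjusted p = 0.0243; 38.0% of genes called) and 5.05-fold from 1 to 6 h (-2.34, SE 0.32, adjusted p = 3.05e-05; 53.0% of genes called). NR4A3 had a 3 h value of -0.04 (SE 0.31, adjusted p = 0.938), which was -0.52 (adjusted p = 0.214) without the library that stood apart, and decreased 3.55-fold by 6 h (-1.83, SE 0.37, adjusted p = 0.000799). The NR4A1 call at 3 h was lost in 4 of the 20 fits that left out a library, those without the CD3_CD28 library at 1 h or 3 h, CD3_CD28_TSP1 at 1 h or TSP1 at 3 h of JinB8 (highest adjusted p = 0.0954). The 1 to 6 h change differed between the lines, by 2.73 (SE 0.45, adjusted p = 0.00118) for NR4A1 and 2.35 (SE 0.52, adjusted p = 0.00751) for NR4A3 on the log2 scale, where 16.6% of genes were called. The 1 to 3 h change was not called as different for either gene (0.63, adjusted p = 0.401, and 1.17, adjusted p = 0.133; 4.28% of genes called). It was 0.68 for NR4A3 without the library that stood apart, and 0.10 for NR4A1 when the 3 h TSP1 library of WT was left out, against 1.10 when that of CD3_CD28 was. The number of genes called for this difference (698) was 169 to 1066 in such fits, lowest without the WT CD3_CD28_TSP1 library at 3 h and highest without the library that stood apart, and that for the 1 to 6 h difference (2714) was 1459 to 4273, lowest without JinB8 TSP1 at 6 h and highest without the library that stood apart. In levels, JinB8 started lower and the lines overlapped at the end, with 11.2 ± 5.57 CPM (SD, n = 3) of NR4A1 in WT and 11.9 ± 0.798 CPM in JinB8 at 6 h, and 1.40 ± 0.429 and 1.304 ± 0.322 CPM of NR4A3.

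NR4A2 in WT cells was lower at 6 h but not at 3 h. Its mean was 0.810 CPM at 1 h (70 counts in 4 libraries), 0.848 CPM at 3 h (58 counts in 3 libraries) and 0.161 CPM at 6 h (13 counts in 3 libraries). In the fit without the low-count filter, where p-values were lenient as described above, its WT value was -0.04 (SE 0.46) from 1 to 3 h. From 1 to 6 h it was -2.23 (SE 0.57, edgeR adjusted p = 0.000633, with 20.3% of genes called). In JinB8 its mean was 0.399, 0.196 and 0.195 CPM, on 41, 13 and 14 counts. The lines were closest at 6 h, as for the other members, but at these counts a difference at 6 h was not detectable.

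The response to plated anti-CD3 and anti-CD28 was measured by pooling libraries with and without TSP1 within each activation state. At 3 h and 6 h the state without antibody was TSP1 alone, 1 library per line, which the test assumes to vary like the other groups. In WT cells at 3 h, NR4A1 was 7.68-fold higher with antibody (log2 fold change 2.94, SE 0.29), at a mean of 209 CPM against 27.3 CPM in the 1 TSP1 library. Both levels were below those at 1 h (434 CPM with antibody and 192 CPM without). The larger ratio at 3 h thus came with a greater fall in the state without antibody, not with a higher activated level. NR4A3 was at 2.00 (SE 0.45), and at 1.99 without the library that stood apart. At 1 h the NR4A1 value was 1.179 (SE 0.20, adjusted p = 0.0690, and 0.0297 without the library that stood apart), with 192 ± 19.2 CPM (SD, n = 2) in libraries without antibody and 434 ± 72.5 CPM with it, and 7 genes (0.0429%) were called, 3 without the WT UT library and 65 without the JinB8 CD3_CD28 library at 3 h. DESeq2 called NR4A1 at 1 h (adjusted p = 5.33e-06). The WT edgeR value of NR4A3 at 1 h was 0.49 (SE 0.31), not called. It was 0.26 without the WT TSP1 library at 1 h and 0.76 without that of UT. By 6 h the WT value was 1.11 (SE 0.30) for NR4A1 and 0.48 (SE 0.57) for NR4A3. These were 0.63 and 0.085 without the WT CD3_CD28_TSP1 library at 6 h and 1.44 and 0.76 without that of CD3_CD28. At that time edgeR called 0% of genes, with 319 genes at an unadjusted p under 0.05, and DESeq2 called 3 and limma voom 0. Without the low-count filter edgeR did call genes at 6 h, NR4A1 (1.11) among them.

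JinB8 cells showed smaller NR4A1 values at every time. The log2 fold change was 0.39 (SE 0.21) at 1 h, 0.62 (SE 0.27) at 3 h and 0.09 (SE 0.29) at 6 h, none past the threshold. The 1 h value was 0.17 without the JinB8 TSP1 library at 1 h and 0.66 without that of UT. The 6 h value was 0.0052 without the JinB8 CD3_CD28 library at 6 h and 0.17 without that of CD3_CD28_TSP1. NR4A3 had 0.36 (SE 0.36), 1.07 (SE 0.47) and 0.44 (SE 0.60). Its 3 h value was 0.20 (SE 0.34) without the library that stood apart and 1.63 without the CD3_CD28 library of that time. The latter fit sets the library that stood apart against the TSP1 library, 1 against 1. Its 6 h value was 0.17 without the JinB8 CD3_CD28_TSP1 library at 6 h and 0.66 without that of CD3_CD28. In JinB8, edgeR called 0% of genes at 1, 3 and 6 h, with 185, 1503 and 250 genes at an unadjusted p under 0.05. DESeq2 called 1, 2 and 1 genes and limma voom 0 at each time. Without the low-count filter edgeR called 84 of 41107 genes at 1 h. It also called genes at 3 and 6 h, where 1 library stood for the state without antibody. Without the JinB8 CD3_CD28 library at 3 h, edgeR called 3780 genes at 3 h.

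The difference between the lines in this response was largest for NR4A1 at 3 h, -2.32 (SE 0.37), which just missed the threshold (edgeR adjusted p = 0.0578; 6 genes or 0.0367% called) and passed it in DESeq2 (-2.31, adjusted p = 1.44e-07). The 6 genes became 0 without the WT CD3_CD28 library at 3 h and 2484 without that of JinB8. At 1 h the NR4A1 difference was -0.79 (SE 0.29), or -0.52 without the JinB8 UT library and -1.01 without the JinB8 TSP1 library of that time. At 6 h it was -1.02 (SE 0.41), or -0.55 without the WT CD3_CD28_TSP1 library at 6 h. Neither was called by edgeR. For NR4A3 the difference was -0.93 (SE 0.63) at 3 h, with an interval of 2 SE from -2.19 to 0.33, and ranged from -1.79 (SE 0.44, adjusted p = 0.415) without the library that stood apart to -0.37 without the JinB8 CD3_CD28 library at 3 h. The NR4A3 difference was -0.13 (SE 0.47) at 1 h and -0.05 (SE 0.83) at 6 h. For the line difference in response at 1 h and 6 h, edgeR called 0% of genes, with 476 and 305 at an unadjusted p under 0.05. DESeq2 called 5 and 2 and limma voom 1 and 0. Without the low-count filter edgeR called 126 of 41107 genes at 1 h and also called genes at 6 h.

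**Figure D3:**
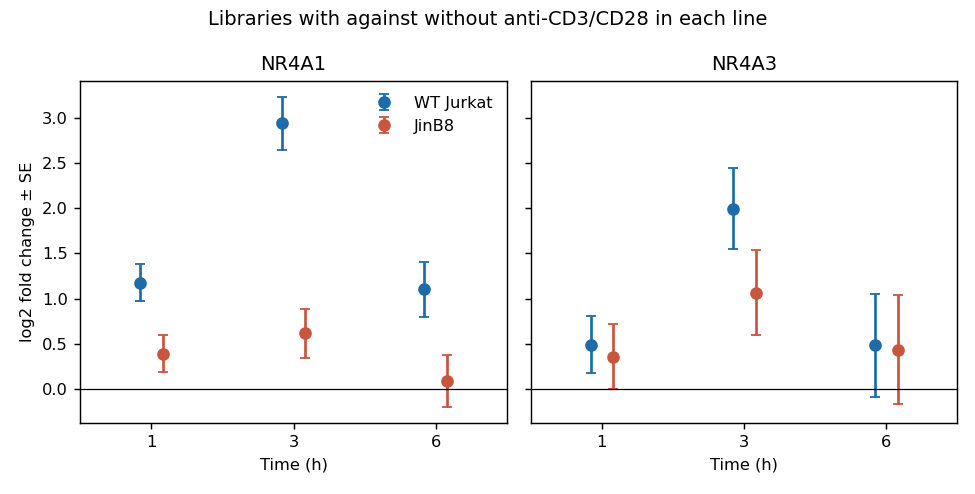
Log2 fold change (± SE from edgeR) of NR4A1 and NR4A3 between libraries with and without plated anti-CD3 and anti-CD28, at 1, 3 and 6 h in WT Jurkat (blue) and JinB8 (red). The WT value of NR4A1 is largest at 3 h (2.94), where that of JinB8 is 0.62. At 3 h 1 TSP1 library per line stands for the state without antibody, and the WT level with antibody is below that at 1 h.

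NR4A2 had 5 counts without and 25 and 28 counts with activation in WT cells at 3 h. The log2 difference was 2.39 (SE 0.82, edgeR adjusted p = 0.394) in the fit without the low-count filter and did not pass. In JinB8 at 3 h it had 2 counts with TSP1 and 7 and 4 counts in the activated libraries, which is at or near the floor.

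TSP1 in activated cells did not move NR4A transcripts beyond the spread. In WT the log2 difference of CD3_CD28_TSP1 against CD3_CD28 was 0.29 for NR4A1 (interval of 2 SE, -0.29 to 0.87, and 0.065 to 0.82 without the WT CD3_CD28 library of 6 h or 3 h) and 0.03 for NR4A3 (-0.55 to 0.61). In JinB8 it was 0.04 (-0.57 to 0.65) and 0.62 (-0.05 to 1.29), and the latter was 0.09 (SE 0.33) without the library that stood apart and 1.06 without the JinB8 CD3_CD28_TSP1 library at 1 h. The lines differed by -0.25 (SE 0.42, and -0.78 to -0.019 without the same 2 libraries) and 0.60 (SE 0.44), the latter being 0.087 (SE 0.40) and 1.03 without the same JinB8 libraries. In each of these comparisons edgeR called 0% of genes, with 366 in WT, 1771 in JinB8 and 393 for the difference at an unadjusted p under 0.05. DESeq2 called 1, 0 and 0 genes and limma voom 0 in each. Without the low-count filter edgeR called 84, 401 and 140 of 41107 genes, in the same order.

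Of the 37 NR4A isoforms, 22 belong to NR4A1, 11 to NR4A2 and 4 to NR4A3, and 7 passed the low-count filter. The RSEM program divides reads among overlapping isoforms, so these are estimates. Most NR4A1 counts were assigned to NR4A1-204, a coding transcript of 7 exons and 2485 nt (chr12:52051442-52059503), which held 73.1 ± 10.1% (SD, n = 10) of NR4A1 counts in WT and 60.0 ± 9.38% in JinB8. Next was NR4A1-215 (chr12:52053418-52059503), a transcript of 4837 nt annotated as retaining an intron, with 15.9 ± 7.15% in WT and 26.7 ± 7.58% in JinB8. Divided by length, its share was 8.12% and 14.4%. NR4A1AS, the annotated antisense gene, received 2 counts in all libraries together, and the strand setting of the counting is not given in the sources used here.

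The balance of these isoforms shifted as the transcript declined. In WT, NR4A1-215 took a mean of 10.2% of counts at 1 h, 15.9% at 3 h and 23.7% at 6 h, while NR4A1-204 went from 82.0% to 72.6% and 61.6%. In JinB8, NR4A1-215 took 20.8%, 25.2% and 36.01%, and NR4A1-204 went from 68.8% to 59.2% and 49.1%. The NR4A1-215 share did not overlap between the lines at 1 h (7.72 to 14.0% in WT, 18.7 to 26.1% in JinB8) or at 3 h (13.6 to 17.5%, 24.1 to 26.5%), and the 6 h ranges almost touched (15.6 to 30.2%, 30.3 to 42.2%). These shares are descriptions with no test. At 6 h they rest on means of 62.5 counts of NR4A1-215 per library in WT and 100.3 in JinB8.

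**Figure D4:**
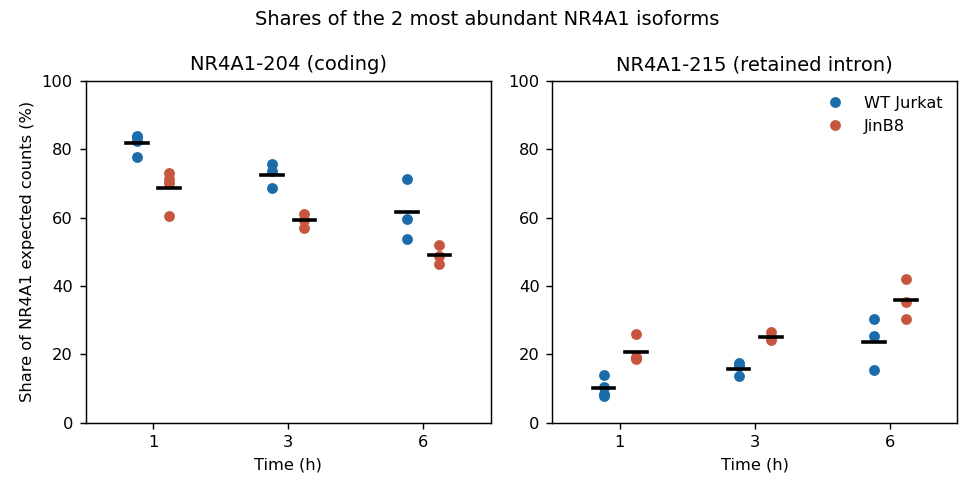
Share of NR4A1 expected counts (%) assigned to the coding isoform NR4A1-204 and the retained-intron isoform NR4A1-215 at 1, 3 and 6 h; each point is 1 library of WT Jurkat (blue) or JinB8 (red) and black bars are means. The NR4A1-215 share rises with time, in WT from 10.2 to 23.7% and in JinB8 from 20.8 to 36.01%.

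In the line comparison of single isoforms, where 15.1% of 55450 isoforms were called, 3 of the 7 NR4A isoforms were called and all 3 were lower in JinB8. NR4A1-204 stood at -2.45 (log2, SE 0.72, edgeR adjusted p = 0.0224), the short retained-intron transcript NR4A1-205 -2.42 (SE 0.70, adjusted p = 0.0205) and NR4A3-203 -2.71 (SE 0.85, adjusted p = 0.0350). NR4A1-215 had -1.24 (SE 0.53, adjusted p = 0.132), NR4A1-201 -1.85 (SE 0.90, adjusted p = 0.193), NR4A1-206 -0.88 (SE 0.59, adjusted p = 0.369) and NR4A3-201 -1.81 (SE 0.65, adjusted p = 0.0643). With the block for matched pairs NR4A1-201 was called as well (-2.14, adjusted p = 0.0215). The NR4A3-203 call was lost in 9 of the 20 fits that left out a library (highest adjusted p = 0.0790), and that of NR4A1-204 without the WT library given CD3_CD28_TSP1 at 1 h (adjusted p = 0.0503). NR4A3-201, of 4982 nt, held 62.2 ± 24.3% of NR4A3 counts in WT and 70.8 ± 19.4% in JinB8.

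The start of NR4A3-203 is where the RefSeq promoter table places the NR4A3 start, 250 bases into the window chr9:99821635-99821934 (plus strand, GRCh38.p14). This window is shown because NR4A1 and NR4A3 moved together and CREB family factors are known regulators of immediate-early genes. Capitals mark TGACG, the short form of the cAMP response element, on either strand (read as CGTCA where it lies on the minus strand).
NR4A3: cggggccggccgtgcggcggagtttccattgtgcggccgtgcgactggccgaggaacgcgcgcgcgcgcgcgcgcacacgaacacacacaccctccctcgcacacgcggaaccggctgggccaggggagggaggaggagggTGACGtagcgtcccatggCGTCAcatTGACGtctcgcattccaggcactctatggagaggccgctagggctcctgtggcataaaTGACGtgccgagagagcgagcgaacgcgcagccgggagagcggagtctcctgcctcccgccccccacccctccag
The window holds 4 matches, beginning at positions -109, -91, -83 and -25 relative to the start. Of 35116 RefSeq promoter windows of this length, 24.6% hold at least 1 such match and 0.313% hold 4 or more. Of the other immediate-early genes, 17 had a window, and 12 of these (70.6%) hold at least 1 match in any of their windows. This share is by gene and that of 24.6% by single window, so the 2 are not directly comparable. None of the other motifs searched on both strands was found in it: the full cAMP response element TGACGTCA, which contains TGACG (1.85% of windows), the AP-1 site TGACTCA (4.95%), the NBRE AAAGGTCA (1.22%), the EGR sites GCGGGGGCG or GCGTGGGCG (5.77%), and the CArG box (1.29%) and MEF2 box (2.99%), searched by their usual consensus. Both NR4A1 windows in the table, at the starts chr12:52022832 and chr12:52037715, held none of these motifs, and both lie upstream of the start of NR4A1-204. Likewise NR4A3-201, which held most NR4A3 counts, starts downstream of the NR4A3 window, at chr9:99826727. A match is a description of letters and does not show a bound site.

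NR4A1 and NR4A3 followed each other across libraries. Pearson's r of log2(CPM + 0.5) was 0.96 over the 20 libraries, 0.99 within the 10 WT libraries and 0.82 within the 10 JinB8 libraries, which share the 3 time points and the same treatments. Among the 13151 genes whose log2 CPM averaged 1 or more, the closest to NR4A1 were CSRNP1 (r = 0.97), EGR2 (0.97), the receptor signaling inhibitor SPRY2 (0.97), NR4A3 (0.96) and EGR3 (0.96). The closest to NR4A3 were NR4A1 (0.96), NFE2L2 (0.95), SPRY4 (0.95), the NF-κB subunit REL (0.94) and TRIM38 (0.94). These r pool lines of different mean level, and within JinB8 the order was REL (0.98), TRIM38 (0.95), SPRY4 (0.89), NR4A1 (0.82) and NFE2L2 (0.79). For NR4A2 they included CHSY1 (0.90), the phosphatase DUSP2 (0.87), LINC00484 (0.86) and GPR3 (0.86), with NR4A1 in place 10 and NR4A3 in place 15. Within JinB8 the NR4A2 values were weaker (0.48 with NR4A1 and 0.36 with NR4A3), at 2 to 16 counts per library.

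Other immediate-early genes offered the nearest comparison. Of 22 listed, 21 were tested, and in WT all 21 were lower at 6 h than at 1 h, with a median log2 fold change of -1.89 against -0.0031 over all genes, of which 50.5% were called. EGR2 (-5.50), EGR4 (-5.44) and EGR3 (-5.02), zinc finger factors induced by antigen receptor signals, fell most, and the WT values of NR4A1 and NR4A3 lay within the range of the list. In JinB8, 14 were lower and 1, KLF4 (0.90), was higher (53.0% of all genes called), with a median of -0.96, and EGR2 (-3.88), EGR1 (-3.75) and the early activation antigen CD69 (-3.18) fell most. Between the lines, 6 were lower and 3 higher in JinB8 (median -0.40; 40.4% of all genes called), and with the block for matched pairs 10 were lower and 5 higher. The number lower was 3 without the WT CD3_CD28 library at 1 h and 9 without that at 6 h. Among those called, CD69 (-2.33), EGR3 (-1.80) and FOSB (-1.65) were the lowest, and KLF4 (1.82), IER5 (1.10) and the phosphatase DUSP1 (0.54) the highest. For activation at 3 h in WT, 1 TSP1 library stood for the state without antibody, so only effect sizes are given. The list had a median log2 fold change of 0.75 there, against 0.0047 over all genes. EGR4 (4.51) was highest, and CD69 (3.08), DUSP2 (2.91), EGR2 (2.91) and EGR1 (2.60) stood nearest the NR4A1 value of 2.94. At 1 h (0.0429% of all genes called) the list genes called were CD69 (1.90), DUSP2 (1.83) and FOS (1.51).

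**Figure D5:**
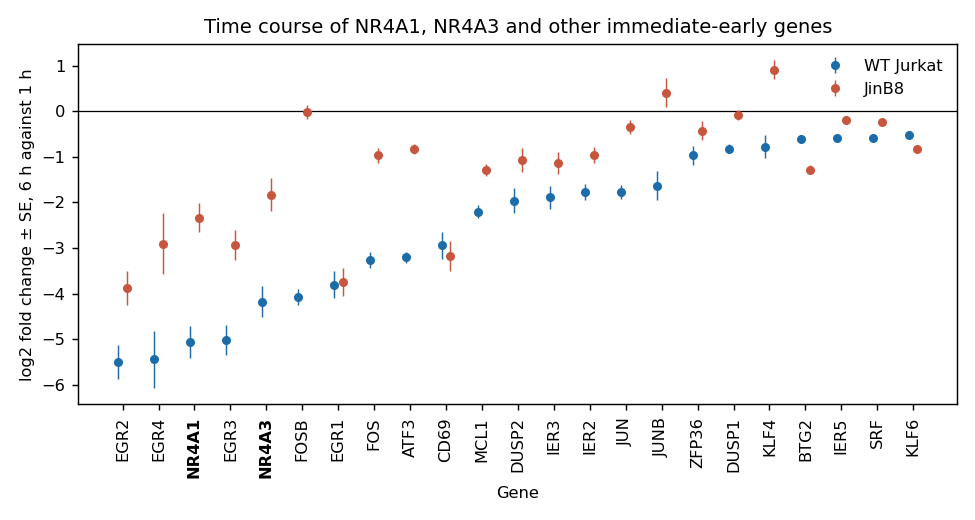
Log2 fold change (± SE from edgeR) from 1 to 6 h of NR4A1, NR4A3 (bold) and 21 other immediate-early genes in WT Jurkat (blue) and JinB8 (red), ordered by the WT value. In WT NR4A1 (-5.07) and NR4A3 (-4.18) lie among the EGR genes and FOSB, and in JinB8 (-2.34 and -1.83) all 4 EGR genes lie lower and FOSB is near 0.

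Regulators upstream of NR4A transcription, namely MEF2, class IIa histone deacetylases, CREB with its coactivators, calcineurin and NFAT, were called about as often as all genes. Their calls were split in direction between the lines, and more were lower than higher at 6 h. Of 23 tested, 4 were higher and 4 lower in JinB8 (median -0.01), where 40.4% of all genes were called. The higher genes were led by the deacetylase HDAC9 (1.41), the calcineurin target NFATC1 (1.19) and the kinase PRKD2 (1.00), and the lower by the calcineurin catalytic subunit PPP3CA (-0.82), MEF2A (-0.78) and the calcium-dependent kinase CAMK4 (-0.78). From 1 to 6 h, 9 were lower and 3 higher in WT (50.5% of all genes called), with HDAC5 (-1.67), CAMK4 (-1.06) and MEF2D (-0.99) falling most and HDAC4 (0.53), CREM (0.44) and CREB1 (0.33) rising. In JinB8, 11 were lower and 3 higher (53.0% of all genes called), with CAMK4 (-2.11), HDAC5 (-1.39) and HDAC9 (-1.31) falling most and PPP3CA (0.69), HDAC4 (0.42) and CREM (0.39) rising; 1 was higher without the JinB8 CD3_CD28 library at 1 h.

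Partners of NR4A proteins included RXRA, a retinoid receptor that can form heterodimers with NR4A1 and NR4A2. RXRA was 2.75 ± 1.94 CPM (SD, n = 10) in WT and 26.2 ± 13.6 CPM in JinB8 (log2 fold change 3.24, SE 0.42, edgeR adjusted p = 1.55e-06), opposite in direction to NR4A1 and NR4A3. It also rose from 1 to 6 h in WT (2.09) and in JinB8 (1.94). BCL2, whose product NR4A1 can bind at mitochondria, was lower in JinB8 (-0.77) and fell with time in WT (-0.63) and in JinB8 (-0.49), where RXRB fell as well (-0.43). The other genes tested of these 5 did not pass in those comparisons, so that 2, 2 and 3 of 5 were called where 40.4%, 50.5% and 53.0% of all genes were. The number falling with time in WT was 1, and 2 without the WT TSP1 library at 1 h.

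Of 12 genes linked to NR4A function in T cells, 8 were tested, and calls were about as frequent as over all genes (3, 5 and 4 of 8 in the line, WT time and JinB8 time comparisons, against 40.4%, 50.5% and 53.0%). In JinB8 the death ligand TNFSF10 was higher (1.32), and the exhaustion-associated factor TOX2 (-2.26) and the pro-apoptotic BCL2L11 (-0.33) were lower. From 1 to 6 h in WT, TNFSF10 (0.81) and IKZF2 (0.33) rose, and the checkpoint receptor PDCD1 (-0.91), BCL2L11 (-0.37) and TOX (-0.31) fell, and 1 gene rose without the WT CD3_CD28 library at 6 h. In JinB8, TNFSF10 rose (0.74) and TOX2 (-1.83), TOX (-0.73) and IKZF2 (-0.58) fell, and 2 genes rose without the library that stood apart.

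The remaining nuclear receptors showed no common direction. Of 45, 24 were tested, and 8 were higher and 6 lower in JinB8 (median 0.05; 40.4% of all genes called), led by RXRA (3.24), the clock repressor NR1D1 (1.41) and the vitamin D receptor VDR (1.04) among the higher and RORB (-1.58) and the glucocorticoid receptor NR3C1 (-0.66) among the lower. In WT, 7 rose and 7 fell from 1 to 6 h (50.5% of all genes called), with RXRA (2.09), NR6A1 (1.52) and RORB (1.11) rising most and RORA (-1.63), NR1D2 (-1.52) and THRA (-1.25) falling most; 4 rose without the WT CD3_CD28 library at 1 h. In JinB8, 8 rose and 8 fell (53.0% of all genes called), with RXRA (1.94), NR6A1 (1.79) and ESRRA (1.27) rising most and RORA (-2.27), THRA (-1.31) and NR2C2 (-1.14) falling most. No nuclear receptor of this list fell as much as NR4A1 or NR4A3 in WT from 1 to 6 h, whereas in JinB8 the value of RORA (-2.27) was below that of NR4A3 (-1.83). None was called in the WT activation comparison at 1 h, where 0.0429% of all genes were.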

How the data were processed

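Per the labels and the study's methods, the authors removed adapters (Cutadapt 1.18), mapped reads on GRCh38 by STAR 2.4.2a and counted genes and isoforms with RSEM 1.3.3 on GENCODE version 36. The deposited values are RSEM expected counts, neither normalized nor pooled. Of each file's columns, 2 that match no sample were not used. Counts were rounded and tested in R 4.3.3 with edgeR 4.0.16 quasi-likelihood tests (TMM, filterByExpr by line with a minimum count of 10 and a minimum total of 15, Benjamini-Hochberg over all features tested, threshold 0.05). The lines were compared over 20 libraries without covariates. Time, line at each time and TSP1 used a model of line by treatment with time terms in each line. Activation used 12 groups of line, time and activation state, with TSP1 states pooled, and both models had 8 residual degrees of freedom. SE is the log2 fold change divided by the square root of F.

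CPM used TMM-scaled library sizes, and log2 values a pseudocount of 0.5. TPM and positions used GENCODE version 44, matched by identifier without version. Lengths were found for 229321 of 232184 isoforms. Promoter windows are from RefSeq (GRCh38.p14), with an entry for 2 of the 3 genes. Same-condition libraries of the lines were matched by treatment and time from the labels, and their deviations from the line means correlated in all 10 pairs (r = 0.126 to 0.602), so the block for pairs was used beside the line comparison.

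The genes named are the members with the isoforms that passed the filter, for each of 5 lists up to 3 genes called higher and 3 called lower with the largest change in the line and 1 to 6 h comparisons, and the 5 genes with the highest r with each member. Some genes that this rule takes in are not reported here. The list genes called on activation were named after their values were seen. The members and lists were chosen with earlier results of these data known. Alternatives were DESeq2 1.42.0, limma 3.58.1 (voom, quantile-normalized), no filter, upper-quartile factors, each library left out in turn, a replicate block of matched pairs, a time term, and activated or other pairs alone. The interactions of line and activation at 3 and 6 h, the fits of NR4A2 without the filter and the list counts under alternatives were added after seeing the data. Tests were also run on simulated data over 16327 genes. These data held no time or treatment effects beyond the change tested, and their spread came from the model with time terms. The line comparison has no covariates and faces a wider spread in the real data, so its recovery here does not apply to genes that move with time or treatment. In these data, 4-fold increases were recovered in 100% of cases for the line and WT 1 to 6 h comparisons. For WT activation at 3 h they were recovered in 78%. In the same order of comparisons, 2-fold increases were recovered in 98%, 74% and 56%, and 4-fold decreases in 100%, 86% and 80%.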

Additional observations from a re-analysis of the deposited data

Results flagged for a closer look

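The change from 1 to 6 h differed between the lines for NR4A1, by 2.73 on the log2 scale (edgeR interaction, SE 0.45, adjusted p = 0.00118, over the 20 libraries). NR4A1 fell by 5.07 in WT and by 2.34 in JinB8, and leaving out each library in turn gave 2.401 to 2.98. For NR4A3 the difference was 2.35 (SE 0.52, adjusted p = 0.00751), from a fall of 4.18 in WT and 1.83 in JinB8, with 1.94 to 2.61 when libraries were left out. Both genes had no more than 17.3 CPM in any library at 6 h.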

How the results depend on the processing

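With the replicate block of matched pairs, the line difference was -1.47 for NR4A1 and -1.62 for NR4A3, both still called, and NR4A1-201 was called at -2.14. The line difference missed the threshold with limma voom (NR4A1 -1.31, NR4A3 -1.48), in the pairs without activation alone (-1.53 and -2.02) and, for NR4A3, in the activated pairs alone (-1.94), where fewer samples were fitted. DESeq2 called NR4A1 on activation of WT at 1 h (1.176), NR4A3 at 3 h (1.99) and the line by activation difference of NR4A1 at 3 h (-2.31), and limma voom the first of these (1.13). Without the low-count filter, calls were added for NR4A1 on activation in WT at 1 h (1.181) and 6 h (1.11), in JinB8 at 3 h (0.60), for its line by activation difference at 1 h (-0.79), 3 h (-2.33) and 6 h (-1.02) and its line by time difference at 3 h (0.65). For NR4A3, calls were added on activation at 3 h in WT (1.99) and JinB8 (1.04) and for the line by time difference at 3 h (1.19), while NR4A3-203 was not called (-2.71). In such fits by time and activation the p-values of NR4A2 allowed for no error in the estimated spread, so the added calls are lenient. The cause was not tested. With upper-quartile factors the 3 h value of NR4A3 in JinB8, not called, turned to 0.016.

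Leaving out each library in turn, the line difference stayed called (NR4A1 -2.35 to -1.87, NR4A3 -2.20 to -1.78), as did those at 1 and 3 h, both 1 to 6 h changes and their difference. NR4A1 activation in WT at 3 h was 2.93 to 2.94 over 19 fits. None of these left out the WT TSP1 library at 3 h, the only one without antibody, so dependence on it could not be examined. The same holds for the other activation values at 3 and 6 h. Calls changed in at least 1 such fit for NR4A1 activation in WT at 1 h (1.01 to 1.33), its line by activation difference at 3 h (-2.33 to -2.31), its 3 h change in JinB8 (-1.02 to -0.82), NR4A3 activation at 3 h in WT (1.83 to 2.14) and JinB8 (0.20 to 1.63), NR4A1-204 (-2.65 to -2.11), NR4A3-201 (-2.07 to -1.59) and NR4A3-203 (-3.05 to -2.34). Values that were not called changed sign for the line difference at 6 h (NR4A1 -0.035 to 0.46, NR4A3 -0.38 to 0.12), TSP1 on NR4A1 in JinB8 (-0.083 to 0.17) and on NR4A3 in WT (-0.16 to 0.47), the line by activation difference of NR4A3 at 1 h (-0.40 to 0.096) and 6 h (-0.32 to 0.35) and its 3 h change in JinB8 (-0.52 to 0.23). Where 1 library was left in a state, it was assumed to vary like the other groups. Depth limits NR4A2, at 2 to 28 counts per library, and the minor isoforms.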
